A study of Mus musculus with 17 samples.

Results

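The clustered protocadherins are the protein-coding genes whose mouse symbols start with Pcdha, Pcdhb or Pcdhg, and 24 of the 38355 gene identifiers counted in the hippocampal libraries belong to them. The members were defined by symbol alone, through GENCODE M21 on the GRCm38 assembly, which names 57 such genes. Earlier results of these data were known when this set of genes was chosen. All 22 beta members (Pcdhb1 to Pcdhb22) were counted under an identifier of their own. The 14 alpha genes and the 21 gamma genes of that annotation had 1 counted identifier per cluster. These are called the alpha row (ENSMUSG00000007440, named Pcdha11 in M21) and the gamma row (ENSMUSG00000023036, named Pcdhgc4 in M21). The 33 members with no row of their own all carry identifiers numbered above the highest one in the count tables. The isoforms within the alpha and gamma clusters, including the C-type genes, were therefore not analysed separately here. None of the sources used here says which of their exons feed the alpha and gamma rows.

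Protocadherins are cadherin-related adhesion proteins of the neuronal surface. The 3 clusters lie side by side on mouse chromosome 18, and each neuron transcribes a selection of isoforms from alternative promoters, a choice that involves CTCF, cohesin and DNA methylation. Isoforms recognise their own kind on opposing membranes, and the resulting surface identity is known for dendritic self-avoidance and for the spacing of axons. In the alpha and gamma clusters each variable exon is spliced to constant exons shared by the whole cluster, whereas a beta gene is an unspliced unit with its own promoter, which is why reads can be assigned to beta members individually.

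PolyA RNA of the hand-dissected hippocampus was sequenced from untreated wild type C57BL/6J mice in 2 separate comparisons. Single-end libraries compared mice of 3 months (3M, n = 5) with mice of 24 months (24M, 6 libraries), an advanced age. Paired-end libraries compared 3M (n = 3) with 29 months (29M, n = 3), close to the end of the life span. Age and library type change together between the comparisons, so 24M and 29M were each read only against the 3M group of their own library type. Sex is not given in the labels.

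The libraries held between 9213474 and 28438296 counts assigned to genes, and the 22 beta members together received between 2011 and 5137 of them per library. Reads that mapped to several places were not counted for any gene and made up 22.9 to 26.6% of the tally in single-end and 10.8 to 12.8% in paired-end libraries. 24M replicates 1 and 4 differed by less than the sampling noise (a ratio of observed to expected spread of 0.406, against at least 1.23 for every other pair of the 136) and were counted as 1 sample, so n = 5 at 24M. The 3M single-end replicate 4 stood apart by its summed level of 8 striatal markers (502 CPM before TMM scaling, against 131 to 191 in the other 16 libraries), and the calls at 24M are given with and without it. Its summed level of 8 neocortical markers (366.2 CPM) was also above that of the other 3M single-end libraries (230.5 to 279.7). On this sum every 24M library (187.7 to 212.8 CPM) lay below every 3M single-end library, with or without replicate 4. The paired-end groups overlapped (195.4 to 209.1 CPM at 3M, 174.6 to 210.3 at 29M). Of the 10 hippocampal subfield markers, 10 passed the filter on low counts in both comparisons. Whether the replicates are separate animals is not stated in the labels beyond their numbering, so p-values measure the spread between these samples.

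Levels were scaled to CPM, the usual library-size scale of RNA-seq counts, with TMM factors. A beta member's exon length ranged from 2588 to 8695 bases, so members are compared with each other in CPM per kilobase of exon. The beta cluster occupies 37264938 to 37524479 of chromosome 18 on the plus strand (GRCm38), and in M21 the whole span of each of the 22 genes is exon. Between 0 and 11.99% of the 50-base windows of a beta member recur in the transcript of another gene at another locus, the most in Pcdhb12. Pcdhb21 and Pcdhb22 overlap by 455 bases, where reads are ambiguous.

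Per length, Pcdhb9 was the most abundant beta member in each of the 4 groups. It reached 4.75 ± 0.55 CPM per kilobase at 3M in single-end libraries (SD, n = 5) and 5.79 ± 0.31 in the 3M paired-end ones (SD, n = 3). In 3M single-end libraries Pcdhb17 (3.91 ± 0.34 CPM per kilobase) and Pcdhb20 (3.62 ± 0.34) ranked next by level and lay within their spread of each other. Pcdhb1 was the least abundant in every group, at 0.09 CPM per kilobase in 3M single-end libraries. The remaining members of that group lay between Pcdhb6 at 0.67 and Pcdhb7 at 3.05 CPM per kilobase, so the mean levels of the cluster covered a wide range already in young mice. In aged mice Pcdhb9 stood at 9.72 ± 0.48 (24M) and 10.4 ± 0.42 CPM per kilobase (29M), more than the member that ranked next in the same libraries, Pcdhb17 with 4.18 at 24M and Pcdhb12 with 4.39 at 29M.

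**Figure D1:**
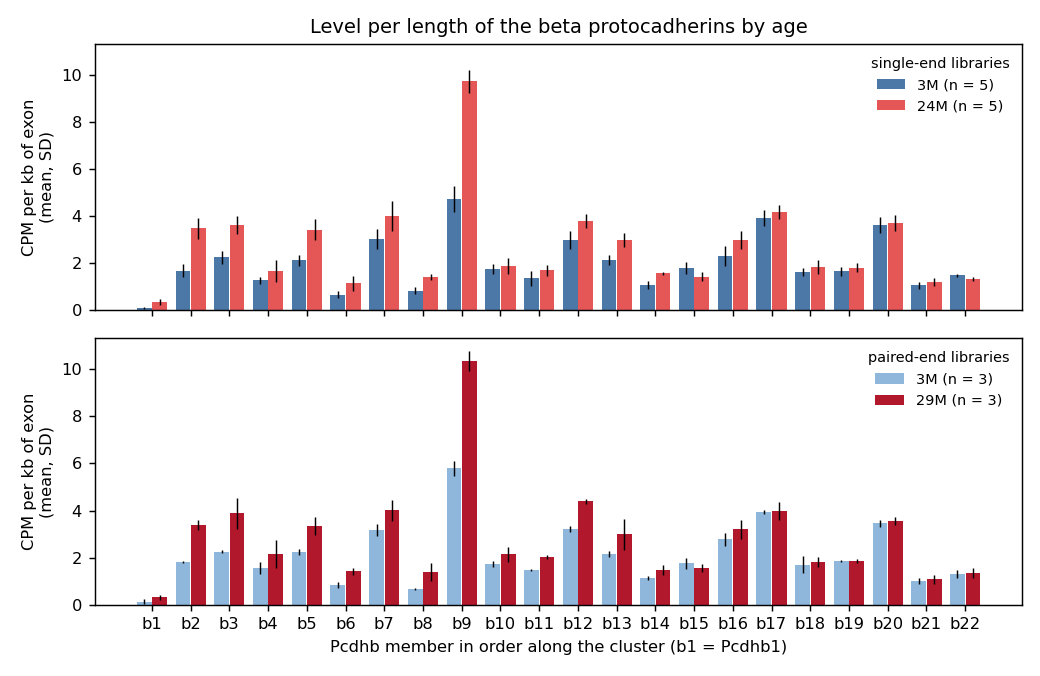
Mean level of each beta member in CPM per kilobase of its own exon (vertical axis, bars start at 0, error bars are SDs), in the order of the genes along the cluster, with single-end libraries above and paired-end libraries below. Pcdhb9 has the tallest bar in all 4 groups, and the aged bar exceeds the young bar mainly on the left of the cluster.

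The comparison of 24M with 3M asked how transcript levels differ at an advanced age. Beta members were higher at 24M: 8 of the 24 rows were called, all of them beta members and all of them higher, and 0 were called lower. A call required an adjusted p of at most 0.05 and a log2 fold change of at least 0.5 in edgeR's quasi-likelihood test fitted on 15683 genes. In that comparison 1.34% of all tested genes were called higher and 0.638% lower, and the members called make up 33.3% of the rows. The called members were Pcdhb1, Pcdhb2, Pcdhb3, Pcdhb5, Pcdhb6, Pcdhb8, Pcdhb9 and Pcdhb14. All 24M samples lay above all 3M samples for 8 of the 24 rows, against 3.15% of all tested genes. The median log2 fold change of the 22 beta members was 0.38, with 20 of 22 above 0, against a median of 0.00 and 49.2% above 0 over all tested genes. All these counts and the median include Pcdhb1, which passed the filter on low counts only through the 24M samples. Without Pcdhb1, 7 of 23 rows were called, and the beta median was 0.37 with 19 of 21 above 0.

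Pcdhb9 (37400855 to 37403909) showed the smallest p of the members. Its 3M single-end samples stood at 16.2, 13.6, 15.0, 12.1 and 15.6 CPM. The 24M samples stood at 28.7, 29.9, 31.5, 30.5 and 27.8 CPM. Every 24M sample therefore lay far above every 3M sample, and no value of either group came near the other. The level was 2.05-fold higher at 24M (95% interval 1.84 to 2.29, log2 fold change 1.04 ± 0.08 SE, adjusted p = 2.98e-05, edgeR).

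Pcdhb2 (37294812 to 37297624), near the start of the cluster, had 5.41, 5.09, 5.16, 3.46 and 4.69 CPM at 3M. At 24M it had 9.87, 11, 10.9, 9.16 and 8.06 CPM. The groups did not overlap, and the lowest young value belonged to the replicate with striatal markers. The fold change was 2.06 (95% interval 1.73 to 2.45, edgeR adjusted p = 8.45e-04), and without that replicate the log2 fold change went from 1.04 to 0.95 with an adjusted p of 8.48e-04 (edgeR).

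Pcdhb3 (37300799 to 37304585), the next gene downstream, was at 8.28, 8.05, 10.2, 7.90 and 8.10 CPM at 3M and at 14.9, 13.8, 15.4, 11.7 and 12.8 CPM at 24M. The highest young sample, replicate 3, remained below the lowest aged sample. The level rose 1.61-fold (95% interval 1.40 to 1.84, edgeR adjusted p = 0.00364).

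Pcdhb5 (37320381 to 37323915) went from 8.09, 7.84, 7.66, 6.16 and 7.71 CPM to 11.8, 13.8, 12.2, 9.78 and 13.1 CPM. The groups were apart, and the rise was 1.61-fold (95% interval 1.39 to 1.86, edgeR adjusted p = 0.00488). Without 3M single-end replicate 4, its lowest young sample, the log2 fold change went from 0.69 to 0.63 (edgeR adjusted p = 0.00835). Pcdhb8 (37355121 to 37358604), the last gene before the widest gap of the cluster (42250 bases), had 2.68, 2.75, 3.18, 3.62 and 2.22 CPM at 3M against 4.73, 5.08, 5.00, 5.37 and 4.19 CPM at 24M. Its groups did not overlap either, and it rose 1.69-fold (95% interval 1.40 to 2.04, edgeR adjusted p = 0.0120).

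Pcdhb6 (37333921 to 37337674) was more variable. It had 2.55, 1.97, 2.75, 2.09 and 3.21 CPM at 3M and 5.00, 3.26, 5.10, 5.54 and 2.90 CPM at 24M. The lowest aged sample fell below the highest young one, so the groups overlapped. The fold change was 1.76 (95% interval 1.35 to 2.295, edgeR adjusted p = 0.0326), and the call ended without 3M single-end replicate 1, 2 or 4, without 24M replicate 3 or 5, and without the pair of 24M replicates 1 and 4.

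Pcdhb14 (37447656 to 37456350), the last member before a gap of 17189 bases, measured 9.55, 9.25, 8.90, 7.49 and 11.7 CPM at 3M and 14.2, 12.7, 14.3, 13.9 and 13.1 CPM at 24M. No aged sample reached down to the young ones. The rise was 1.46-fold (95% interval 1.26 to 1.68, edgeR adjusted p = 0.0154), close to the fold threshold, and without 3M single-end replicate 4 the log2 fold change of 0.47 no longer reached it, nor did the 0.36 with GC and length offsets. Just under that threshold lay Pcdhb13, with a log2 fold change of 0.49 (edgeR adjusted p = 0.0162) and no overlap between the groups. Counting by adjusted p alone gave 9 members higher, where 3.21% of all genes were.

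Pcdhb1 (37264938 to 37267525), the gene at the head of the cluster, rested on few reads. It had 9, 2, 9, 3 and 4 counts in the 3M samples and 10, 8, 13, 22 and 12 counts in the 24M samples. In CPM these were 0.41, 0.10, 0.32, 0.15 and 0.20 against 0.70, 0.61, 0.67, 1.24 and 1.29, without overlap. The fitted change was 3.54-fold (95% interval 2.16 to 5.81, edgeR adjusted p = 0.0175). Pcdhb1 passed the filter on low counts only through the 24M samples, so it had to differ to be tested. Among the 23 other rows 7 were called, and without Pcdhb1 the beta median was 0.37, with 19 of 21 above 0.

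Downstream of Pcdhb14 no member was called at 24M. Pcdhb15 (37473540 to 37476340) had 5.05, 4.73, 5.26, 5.96 and 4.10 CPM at 3M and 4.31, 3.95, 4.79, 3.45 and 3.55 CPM at 24M, with overlapping groups. It had the lowest log2 fold change of the members, -0.32 ± 0.13 SE (edgeR adjusted p = 0.153). Pcdhb22 (37517871 to 37524479), at the end of the cluster, had 9.73, 9.20, 8.83, 8.71 and 9.19 CPM against 7.37, 8.80, 8.56, 8.2 and 8.06 CPM, with a log2 fold change of -0.15 ± 0.08 SE (edgeR adjusted p = 0.243). The other 6 members from Pcdhb16 to Pcdhb21 had log2 fold changes between 0.03 and 0.37, and none passed the test.

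The alpha row had 195.2, 210.0, 214.9, 207.6 and 208.6 CPM at 3M and 211.2, 210.8, 223.9, 192.0 and 198.4 CPM at 24M. The groups lay on top of each other, with a log2 fold change of 0.00 ± 0.05 SE (edgeR adjusted p = 0.997), a value whose sign changed between settings. The gamma row, the most highly counted of the 24, had 821.9, 836.8, 830.5, 797.4 and 781.9 CPM at 3M. At 24M it had 727.8, 749.4, 762.8, 776.7 and 727.8 CPM. All aged values lay below all young values, which 3.42% of tested genes did, but the log2 fold change of -0.12 ± 0.04 SE missed the threshold (edgeR adjusted p = 0.0836). It shrank to -0.04 in the fit with GC and length offsets.

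**Figure D2:**
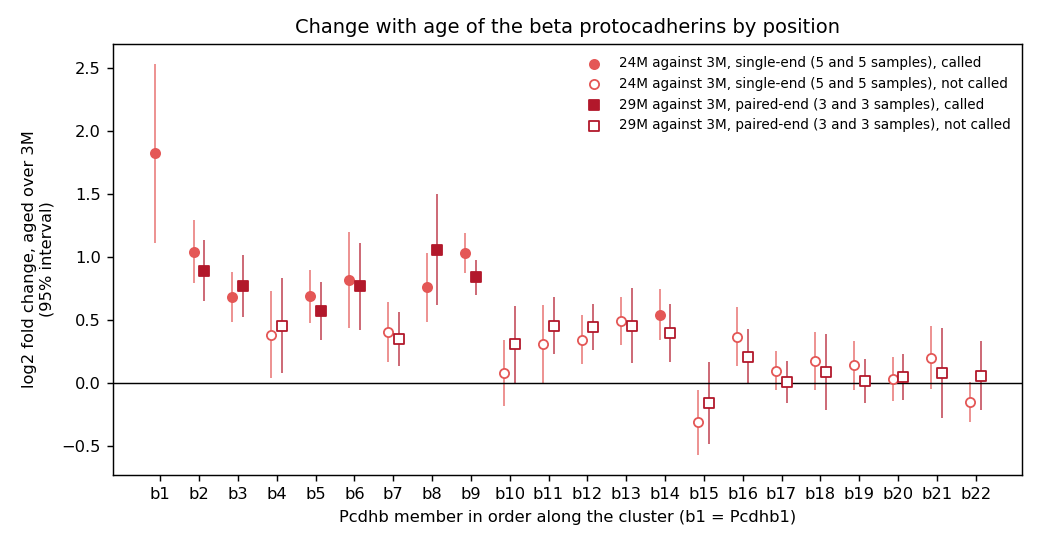
Log2 fold change of aged over 3M samples with its 95% interval (vertical axis) for each beta member in order along the cluster, for 24M against 3M (circles) and 29M against 3M (squares), filled where called. The members called lie between Pcdhb1 and Pcdhb14, where all values are above 0. From Pcdhb15 onward values range from -0.32 to 0.37 at 24M and from -0.16 to 0.21 at 29M, with 6 of 8 and 7 of 8 above 0. Pcdhb1 has no square because it was not tested at 29M.

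The comparison of 29M with 3M put the same question near the end of life. There 6 of the 23 tested rows were called, all higher and all beta members, and 0 were called lower. Over the 15097 genes tested 1.34% were called higher and 0.113% lower. The called members were Pcdhb2, Pcdhb3, Pcdhb5, Pcdhb6, Pcdhb8 and Pcdhb9, which were also called at 24M (6 of the 6 called at 29M, 75.0% of the 8 called at 24M). The median log2 fold change of the 21 beta members tested was 0.40, with 20 of 21 above 0, against a median of 0.00 and 49.4% above 0 over all tested genes.

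Pcdhb9 again had the smallest p of the members. It had 16.8, 17.5 and 18.7 CPM at 3M and 32.3, 32.4 and 30.2 CPM at 29M. The 2 groups were far apart. The rise was 1.79-fold (95% interval 1.62 to 1.97, log2 fold change 0.84 ± 0.07 SE, edgeR adjusted p = 3.36e-05).

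Pcdhb2 had 5.26, 4.97 and 5.13 CPM at 3M against 9.93, 9.80 and 8.86 CPM at 29M. Its young samples agreed closely, and the rise was 1.86-fold (95% interval 1.57 to 2.20, edgeR adjusted p = 0.00164). Pcdhb3 had 8.32, 8.84 and 8.54 CPM against 17.5, 13.98 and 12.6 CPM, with no overlap and a wider spread among the aged samples, and rose 1.70-fold (95% interval 1.44 to 2.02, edgeR adjusted p = 0.00471).

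The largest fitted change at 29M was that of Pcdhb8. It had 2.29, 2.16 and 2.43 CPM at 3M and 6.31, 4.19 and 3.85 CPM at 29M. The groups were apart, with 29M replicate 1 above the other aged samples. The rise was 2.08-fold (95% interval 1.54 to 2.83, edgeR adjusted p = 0.0216).

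Pcdhb5 had 7.56, 7.79 and 8.45 CPM against 12.7, 12.6 and 10.3 CPM and rose 1.49-fold (95% interval 1.27 to 1.75, edgeR adjusted p = 0.0180). Pcdhb6 had 2.63, 3.27 and 3.51 CPM against 4.79, 5.23 and 5.96 CPM and rose 1.70-fold (95% interval 1.34 to 2.17, edgeR adjusted p = 0.0354). Neither pair of groups overlapped. With 3 samples per group these calls were less stable: the number of called members was 3 without 3M paired-end replicate 1, without 3M paired-end replicate 2 or without 29M replicate 1, where Pcdhb2, Pcdhb3 and Pcdhb9 remained. The call of Pcdhb6 was lost when any of the 6 libraries was left out, with DESeq2 and in the fit of all 4 groups, and the count of 6 without 29M replicate 3 includes Pcdhb13 in its place. Pcdhb5 and Pcdhb8 each lost their call without 4 of the 6 libraries.

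**Figure D3:**
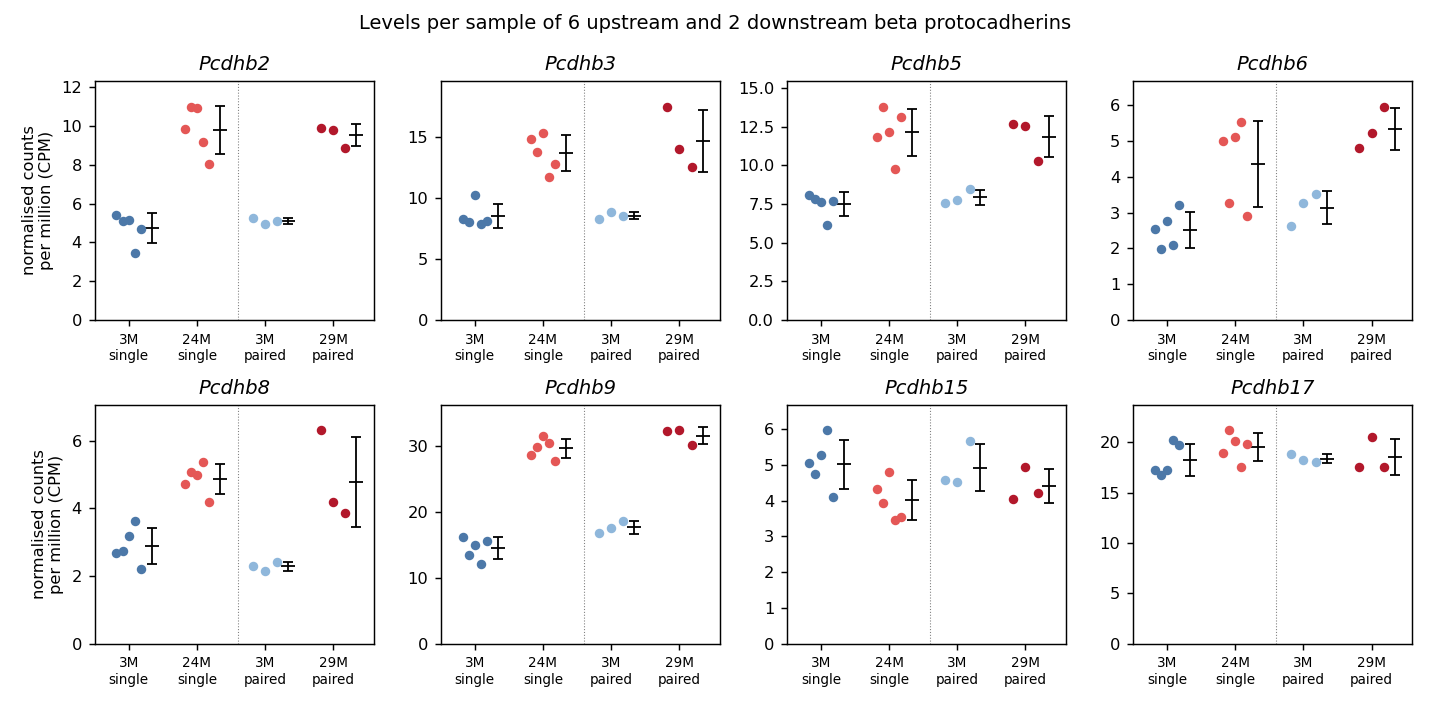
Normalised CPM (vertical axes, starting at 0) of 8 beta members in every sample of the 4 groups, with the group mean and SD in black to the right of the points and a dotted line between the library types. Pcdhb2, Pcdhb3, Pcdhb5, Pcdhb8 and Pcdhb9 separate the aged from the young samples in both comparisons, Pcdhb6 overlaps at 24M, and Pcdhb15 and Pcdhb17 overlap at both ages.

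Pcdhb1 was not tested at 29M for low counts, with 0, 9 and 5 counts at 3M and 13, 8 and 8 counts at 29M. Pcdhb14 had 9.08, 10.2 and 10.2 CPM against 14.05, 10.7 and 13.9 CPM, without overlap, and a log2 fold change of 0.40 ± 0.12 SE that missed the threshold (edgeR adjusted p = 0.0977). By adjusted p alone, Pcdhb12 joined the called members with a log2 fold change of 0.45 (edgeR adjusted p = 0.0205), making 7 members higher where 2.32% of all genes were. In 12 of the 23 tested rows all 29M samples lay above all 3M samples, against 11.9% of all tested genes. Those 12 were the members from Pcdhb2 to Pcdhb14 except Pcdhb4.

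From Pcdhb15 to Pcdhb22 the groups overlapped for all 8 members at 29M. Pcdhb15 again had the lowest value, with 4.58, 4.52 and 5.66 CPM at 3M and 4.04, 4.95 and 4.21 CPM at 29M (log2 fold change -0.16 ± 0.17 SE, edgeR adjusted p = 0.683). Pcdhb22 had 9.17, 7.72 and 7.28 CPM against 9, 6.94 and 9.01 CPM, with a log2 fold change of 0.06 ± 0.14 SE (edgeR adjusted p = 0.875). Its direction differed from that at 24M, and neither value passed the test.

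The alpha row stood at 194.8, 184.8 and 189.7 CPM in young and 182.1, 172.1 and 180.9 CPM in 29M samples. All aged values were below all young ones, as for 10.5% of tested genes, with a log2 fold change of -0.09 ± 0.04 SE (edgeR adjusted p = 0.231). The gamma row had 728.5, 729.5 and 733.8 CPM against 721.6, 727.0 and 746.9 CPM, with a log2 fold change of 0.00 ± 0.04 SE (edgeR adjusted p = 0.983). So neither the alpha row nor the gamma row was called at either age.

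By position, log2 fold changes were larger toward the start of the beta cluster. From Pcdhb1 to Pcdhb14 the median log2 fold change was 0.61 at 24M (range 0.08 to 1.82, 14 of 14 above 0, 8 called) and 0.45 at 29M (range 0.31 to 1.06, 13 of 13 tested above 0, 6 called). Without Pcdhb1, which had to differ to be tested, the 24M median of this stretch was 0.54 (range 0.08 to 1.04, 13 of 13 above 0, 7 called). From Pcdhb15 to Pcdhb22 the median was 0.12 at 24M (range -0.32 to 0.37, 6 of 8 above 0) and 0.05 at 29M (range -0.16 to 0.21, 7 of 8 above 0), with 0 of 8 called at either age. The boundary at the gap behind Pcdhb14 was drawn after these values were seen, so no test is given for it. Without a boundary, the Spearman correlation of log2 fold change with rank along the cluster was -0.79 over 22 members at 24M (-0.75 over 21 without Pcdhb1) and -0.83 over 21 at 29M, as a description across genes that share libraries and are not independent.

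Other features of the genes followed the change less closely. The Spearman correlation of log2 fold change with transcript GC content was 0.31 at 24M and 0.43 at 29M, with exon length -0.31 and -0.35, with the percentage of recurring 50-base windows -0.02 and 0.26, and with the 3M level per length -0.23 and -0.14, over 22 and 21 members. GC content itself ranged from 39.1 to 49.0%: 43.8 to 49.0% up to Pcdhb13, 39.1% in Pcdhb14 and 41.2 to 48.3% from Pcdhb15. Exon length was 2588 to 4419 bases up to Pcdhb13, 8695 in Pcdhb14 and 2801 to 7138 from Pcdhb15. GC content and length thus also differed along the cluster, and position was not tested apart from them. Recurring windows made up 0 to 11.99% of the members up to Pcdhb14 and 1.89 to 5.47% of those from Pcdhb15. A fit with GC and length offsets called 7 members higher in the 24M comparison, with Pcdhb14 no longer among them, and 6 in the 29M comparison.

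Sums over the members show the pattern per sample, and as sums over chosen genes they carry no test. Pcdhb1 to Pcdhb14 together had 96.7, 89.2, 101.5, 83.7 and 97.9 CPM in the 3M single-end samples and 145.1, 150.2, 157.3, 137.1 and 134.7 CPM at 24M. In the paired-end samples they had 99.6, 100.3 and 103.2 CPM at 3M and 162.9, 153.5 and 142.7 CPM at 29M. The mean sum was 1.54-fold higher at 24M (1.504-fold without 3M single-end replicate 4) and 1.51-fold higher at 29M, and the groups did not overlap in either comparison. For Pcdhb15 to Pcdhb22 the sums ranged from 78.1 to 90.7 CPM at 3M and 81.5 to 94.1 at 24M, and from 81.5 to 86.2 CPM at 3M and 83.9 to 90.5 at 29M, overlapping in each comparison.

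**Figure D4:**
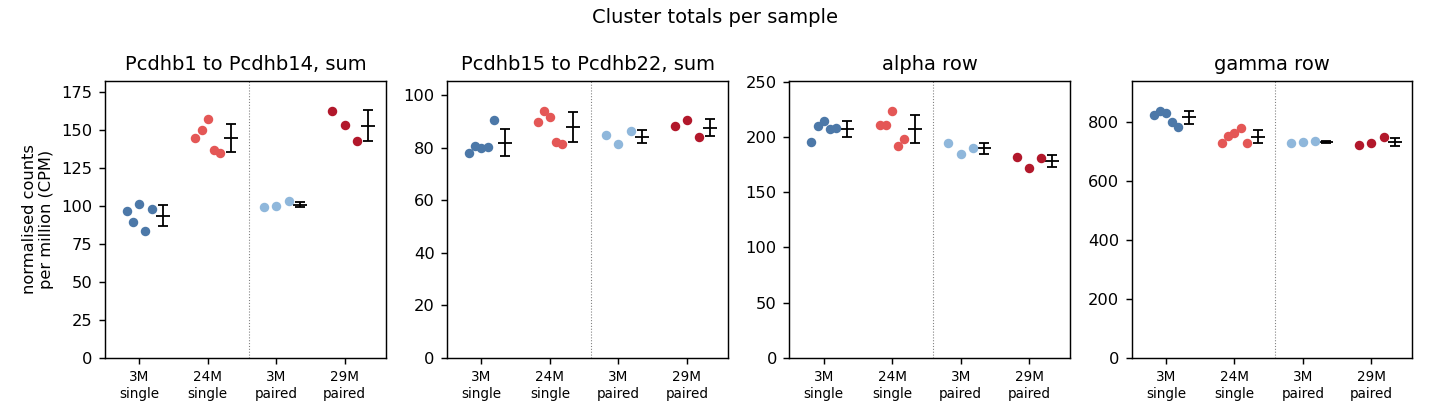
Summed CPM of Pcdhb1 to Pcdhb14 and of Pcdhb15 to Pcdhb22, and CPM of the alpha and gamma rows, in every sample (vertical axes start at 0), with the group mean and SD in black. Only the sum of Pcdhb1 to Pcdhb14 is higher in every aged sample than in every young one in both comparisons.

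Over the whole beta cluster the mean sum of 175.7 ± 9.67 CPM at 3M compared with 232.8 ± 14.6 at 24M (SDs, n = 5 each), a ratio of 1.32. In paired-end samples 185.2 ± 3.87 CPM compared with 240.7 ± 12.7 at 29M (SDs, n = 3 each), a ratio of 1.30. Pcdhb9 alone supplied 7.37 to 9.29% of the beta sum in 3M single-end samples and 12.2 to 13.9% at 24M. In paired-end samples its share was 9.12 to 9.87% at 3M and 12.9 to 13.3% at 29M. Pcdhb1 to Pcdhb14 made up 53.3 ± 2.15% of the beta sum at 3M and 62.2 ± 0.67% at 24M (SD, n = 5 each), and 54.6 ± 0.57% and 63.6 ± 1.09% in the paired-end groups (SD, n = 3 each). Relative to the gamma row, the beta sum was 21.6 ± 1.52% at 3M and 31.1 ± 2.01% at 24M (SD, n = 5 each). In the paired-end groups it was 25.3 ± 0.45% at 3M and 32.9 ± 2.31% at 29M (SD, n = 3 each). The mean of the gamma row was itself lower at 24M (748.9 CPM against 813.7 at 3M), a change that was not called. In bulk tissue, fewer cells of a type and less RNA per cell cannot be told apart, and likewise more of either.

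Whether the change differed between 24M and 29M was tested as a difference of the 2 contrasts in a fit of all 4 groups. With edgeR 0 of 16055 genes passed an adjusted p of 0.05 (1674 genes, 10.4%, had an unadjusted p under 0.05), and with DESeq2 0 passed as well. Without 3M single-end replicate 5, 92 genes passed, none of them a member. The smallest member p was that of the gamma row (difference of log2 fold changes 0.12 ± 0.06 SE, edgeR adjusted p = 0.468). For Pcdhb9 the difference was -0.20 ± 0.12 SE (edgeR adjusted p = 0.563), and for Pcdhb8 it was 0.30 ± 0.26 SE (edgeR adjusted p = 0.704). A difference between the ages was therefore not detectable for any member, and age and library type cannot be told apart in this contrast.

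Of 24 genes that regulate the clusters (architectural proteins, cohesin and its loaders, DNA methylation and silencing factors), the test covered 24 at 24M and 23 at 29M and called 0. Their median log2 fold change was 0.05 at 24M and -0.02 at 29M. Ctcf, whose protein binds the isoform promoters and enhancers, had 84.7 ± 4.17 CPM at 3M and 90.2 ± 5.57 at 24M (SD, n = 5 each, log2 fold change 0.09, edgeR adjusted p = 0.291), and a log2 fold change of 0.01 at 29M (edgeR adjusted p = 0.967). Smchd1, whose product represses the clusters, differed by a log2 of 0.04 at 24M (edgeR adjusted p = 0.691) and of -0.06 at 29M (edgeR adjusted p = 0.689).

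Among 24 partners and processing enzymes of the proteins, 1 was called at 24M and 0 at 29M. Ret, a receptor tyrosine kinase that binds protocadherins, fell from a 3M mean of 7.36 ± 1.16 to 3.95 ± 1.32 CPM at 24M (SD, n = 5 each, log2 fold change -0.94, edgeR adjusted p = 0.0159), a call that was lost without 24M replicate 2. At 29M it measured 3.26 ± 0.69 CPM against 6.64 ± 2.82 at 3M (SD, n = 3 each), with a log2 fold change of -1.04 (edgeR adjusted p = 0.0640). DESeq2 called it there.

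The non-clustered protocadherins, related adhesion genes outside the clusters, were lower rather than higher in median. Of 12 tested at 24M and 11 at 29M, 0 were called, 3 and 1 had a log2 fold change above 0, and the medians were -0.14 and -0.17. By adjusted p alone (where 2.37% of genes were lower at 24M and 0.662% at 29M), 2 were lower at 24M, Pcdh7 (-0.46, edgeR adjusted p = 0.0343) and Pcdh8 (-0.28, edgeR adjusted p = 0.0302). At 29M these were Pcdh9 (-0.22, edgeR adjusted p = 0.0426), Pcdh10 (-0.18, edgeR adjusted p = 0.0188) and Pcdh17 (-0.27, edgeR adjusted p = 0.00232). Of 29 other protein-coding genes within 500000 bases of the clusters or between them, 25 and 24 were tested and 0 were called, with medians of -0.05 and -0.03.

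Markers of other cells moved with age in the same libraries. The summed level of 8 microglial markers went from between 371.3 and 426.3 CPM at 3M to between 475.3 and 504.8 at 24M, and from between 360.4 and 372.3 to between 466.8 and 490.3 at 29M, with 2 of 8 called higher at each age. Of the 8 immature neuron markers, 5 passed as lower in the 24M comparison and 2 of 7 tested did in the 29M one. At 24M 1 of the 8 went the other way, with a log2 fold change of 0.39 that passed by adjusted p alone. At 29M 0 of the 7 were above 0. Of 10 markers of mature neurons 0 were called at either age (medians -0.03 and -0.06). Of 8 astrocyte markers Gfap alone was called, higher at both ages. Without 3M single-end replicate 4, the 24M counts were 3 immature neuron markers and 1 microglial marker (C1qa), and the medians of the neocortical and striatal lists were -0.36 and 0.02 in place of -0.59 and -0.68. Gpr17, an oligodendrocyte precursor gene, was lower at both ages and the endothelial Cldn5 was lower at 24M, while the interneuron, oligodendrocyte, choroid plexus, striatal, hypothalamic and hippocampal subfield lists had 0 genes called. The part of these markers in the change of the beta members was not tested. Leaving out the 3M single-end replicate with the high striatal level, 6 members were called higher at 24M (Pcdhb6 and Pcdhb14 were lost), and Pcdhb9 had a log2 fold change of 0.98 (edgeR adjusted p = 3.11e-05).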

How the data were processed

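The deposited files hold raw counts per Ensembl gene. The authors aligned reads with STAR 2.3.0 to GRCm38.p2 and counted them with HTSeq in its intersection-nonempty mode, so multi-mapping and ambiguous reads were left out (ambiguous: 1.64 to 1.84% in single-end, 1.16 to 1.31% in paired-end libraries). The library kit does not mark strand. Symbols came from GENCODE M21 (36602 of 38355 identifiers named). Members and gene lists were chosen with earlier results of these data known. 24M replicates 1 and 4 entered as their rounded mean.

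Each aged group was tested against the 3M group of its library type with edgeR 4.0.16 in R 4.3.3 (TMM, default low-count filter, quasi-likelihood, Benjamini-Hochberg over all tested genes). Calls required an adjusted p of at most 0.05 and a log2 fold change of at least 0.5 in size. Intervals are the estimate with normal quantiles of its SE. With so few samples per group they are narrower than the test itself would give. An interval clear of no change is therefore not a call. Alternatives used DESeq2 1.42.0, other filters, GC and length offsets, a replicate block and single libraries left out. Tested on simulated data, the 24M fit recovered 98 of 100 genes changed by a log2 of 1 with 3 false calls among 15546 genes, and the 29M fit 96 of 100 with 3 among 14949. The changed genes were drawn from those with an average log2 CPM above 1, and each simulated gene had the typical spread at its level. Smaller changes were not simulated, so these rates do not cover the members with smaller changes or low counts.

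Values are given for members called at either age, the alpha and gamma rows, the 3 largest changes each way and the most abundant member, and for listed genes that were called, with Ctcf and Smchd1. Pcdhb4, Pcdhb7, Pcdhb11, Pcdhb12, Pcdhb13, Pcdhb17, Pcdhb20 and the Pcdh genes were named after their values were seen. Counts allow no statement on sequence outside the annotated genes, and no sequences of the members are shown. The calls of single neocortical markers are not reported here.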

Additional observations from a re-analysis of the deposited data

Results flagged for a closer look

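Among 50 groups of 5 samples examined (22 beta members, the alpha and gamma rows and the beta sum at 3M and 24M in single-end libraries), 3 had a sample set apart from the rest of its group by more than Dixon's 95% critical value. Chance flags about 1 in 20 groups, which would be 2.5 of 50. Pcdhb3 was high in 3M single-end replicate 3 (10.2 CPM, next 8.28, gap over range 0.839). Pcdhb5 was low in 3M single-end replicate 4 (6.16 CPM, next 7.66, gap over range 0.777), the replicate with high striatal markers. Pcdhb11 was low in 24M replicate 1, the mean of replicates 1 and 4 (5.70 CPM, next 7.58, gap over range 0.753). No member's change differed between 24M and 29M by the test of that difference at an adjusted p of 0.05 (edgeR; 1 member, the gamma row, had an unadjusted p under 0.05).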

How the results depend on the processing

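Pcdhb2, Pcdhb3 and Pcdhb9 kept their calls at both ages in every alternative. The number of members called higher at 24M, 8 in the reported analysis, ranged from 6 to 9 when single libraries were left out, and was 4 with a replicate block and 6 with the block plus offsets for GC content and length. At 29M the number was 6 and ranged from 3 to 6 without single libraries. It was 3 without 3M paired-end replicate 1, 3M paired-end replicate 2 or 29M replicate 1. It was 6 with the block, 5 with DESeq2 and 4 with all 4 groups in 1 fit. DESeq2 lost Pcdhb6 there, and the fit of all 4 groups lost Pcdhb5 and Pcdhb6. The number called lower was 0 throughout. With the block at 24M, the calls of Pcdhb1, Pcdhb5, Pcdhb8 and Pcdhb14 missed the threshold (adjusted p from 0.0523 to 0.143, edgeR). Pcdhb14 also lost its 24M call with the GC and length offsets (log2 fold change 0.36, and 0.30 with the block added). The 29M call of Pcdhb6 was lost in 8 of 14 alternatives and its 24M call in 6 of 21. The counts of listed genes and the sums without 3M single-end replicate 4, and the values by position without Pcdhb1, were chosen after seeing the data. Same-numbered samples did not deviate together (correlations of their deviations from -0.14 to 0.05 at 24M and from -0.07 to 0.10 at 29M), so the numbers were not taken as pairs.

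Directions turned only for 11 values close to 0 in size (at most 0.087) and far from any call (smallest adjusted p 0.385, edgeR). At 24M these log2 fold changes were, with the replicate block, -0.067 for Pcdhb10 and -0.020 for Pcdhb20, with offsets for GC content and length -0.027 for Pcdhb20, -0.067 for Smchd1 and -0.018 for the alpha row, and with both -0.079 for Pcdhb10, -0.087 for Pcdhb20 and -0.047 for Smchd1. The alpha row at 24M was also at -0.0068 with no filter, -0.00028 with the stricter filter, -0.00031 with all 4 groups in 1 fit and -0.0062 without the pair of 24M replicates 1 and 4. The gamma row at 29M was at -0.0017 with all 4 groups in 1 fit and at -0.011 with the offsets, alone or with the block. Leaving out single libraries turned Smchd1 (range -0.022 to 0.061) and the alpha row (-0.037 to 0.022) at 24M. At 29M it turned Ctcf (-0.037 to 0.029), Pcdhb17 (-0.069 to 0.047), Pcdhb18 (-0.067 to 0.22), Pcdhb19 (-0.0091 to 0.048), Pcdhb21 (-0.016 to 0.22), Pcdhb22 (-0.0081 to 0.16) and the gamma row (-0.013 to 0.012). The causes were not tested. The beta sum was 1.29 to 1.35 times its 3M value at 24M and 1.27 to 1.34 times at 29M without single libraries. Depth limits the members with few counts: Pcdhb1 had at most 22 counts in a sample.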
